A study of Mus musculus with 13 samples.

Results

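Cell cycle and replication genes were examined in mouse NUT carcinoma (mNC), a poorly differentiated carcinoma with squamous features. The 55 genes were listed by function as cyclins, cyclin-dependent kinases and their inhibitors, cell cycle transcription factors, and replication and mitosis genes. All 55 were found among the 55332 genes with values in the count table. RNA was sequenced from 13 tumors, with 1 library per tumor. In the oral cavity 4 tumors were Sox2 WT and 2 were Sox2 KO, and in the pancreas 4 were Sox2 WT and 3 were Sox2 KO. All 13 tumors carried 1 copy of the NUT carcinoma translocator allele (NCT+/-), which Cre activates, so that WT refers to Sox2 alone. The oral WT tumors were labelled KRT14-Cre; NCT+/- and the pancreatic WT tumors Pdx1-Cre; NCT+/-. The pancreatic KO tumors carried in addition floxed Sox2 (Sox2fl; fl). The oral KO tumors were labelled KRT4Cre; NCT+/-; Sox2fl/fl, whereas the methods of the study name KRT14-Cre for the oral model, so that the driver of the oral KO tumors is given in 2 ways. Ages were not given in the sources used here, and nothing in the labels says whether tumors of a group came from separate litters. Where they did not, p-values measure only the spread between these tumors. Oral and pancreatic tumors also differ in the Cre driver, which cannot be told apart from the site. The keratin 14 promoter is active in basal squamous epithelium, and the Pdx1 promoter in the epithelium of the developing pancreas.

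A cell that divides passes through G1, S, G2 and M phase. D-type cyclins with Cdk4 and Cdk6, and then E-type cyclins with Cdk2, phosphorylate the retinoblastoma protein Rb1, which otherwise holds back E2F transcription factors. E2F targets license replication origins and make DNA, and later in the cycle the B-Myb (Mybl2) and Foxm1 factors drive the genes of mitosis. The INK4 proteins encoded by Cdkn2a, Cdkn2b and Cdkn2c inhibit Cdk4 and Cdk6, and Cdkn1b (p27) inhibits cyclin-Cdk2 complexes. NUT carcinoma is known as a fast-growing tumor of undifferentiated cells. In bulk RNA, fewer cycling cells and less RNA of these genes per cell cannot be told apart.

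Sox2, the targeted gene, had 0 to 2 estimated counts in the 5 KO tumors, against 410 to 680 in oral WT and 1111 to 1487 in pancreatic WT tumors. Totals ran from 29394258 to 40420228 in oral WT, were 11735315 and 20432164 in oral KO, and ran from 40964533 to 46134830 in pancreatic WT and from 89562790 to 120482829 in pancreatic KO. Oral KO tumor 1 stood apart, with 59.5% of its counts in protein-coding genes against 84.5% to 91.7% in the other 12 tumors, and 16.6% in the 7SL RNA genes Rn7s1 and Rn7s2 against at most 6.0%. Every member had at least 40 counts in every tumor, and together the 55 took 0.209% (oral KO tumor 1) to 0.705% (oral WT tumor 3) of the counts. The summed level of 15 squamous epithelial genes was 6701 to 15691 counts per 1000000 (CPM) in oral and 16935 to 29802 in pancreatic tumors, with no gene of the list at 0. The summed level of 22 skeletal muscle genes was 52.3, 39.7, 76.3 and 702 CPM in oral WT and 6212 and 3426 CPM in oral KO tumors, and 23.1 to 56.2 CPM in the pancreatic tumors. None of the 22 was at 0 in the oral KO tumors, and the part of muscle in the oral results was not tested. The summed level of 12 fibroblast genes was 9623 to 20147 CPM in oral and 1243 to 4162 CPM in pancreatic tumors. The summed level of 12 pancreatic acinar genes was 279.9 CPM in pancreatic KO tumor 3 and at most 14.9 CPM elsewhere.

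Some promoters of the genes carry the letters that the field connects with the 2 waves of cell cycle transcription. RefSeq promoter windows (GRCm38.p6, 250 bases before to 50 after each start) were at hand for 44 of the 55 genes, as 49 windows. They were searched on both strands for E2F sites (TTTCCCGC, TTTCGCGC, TTTGCCGC or TTTGGCGC), the cell cycle gene homology region (CHR, TTTGAA) and the CCAAT box (CCAAT). An E2F site was found in 10 of 22 windows of G1/S and replication genes, the cell cycle transcription factors included (45.5%), in 1 of 17 windows of G2 and mitosis genes (5.88%) and in 2.26% of all 32851 promoter windows. A CHR was found in 13 of the 17 G2 and mitosis windows (76.5%), in 4 of the 22 G1/S and replication windows (18.2%) and in 17.9% of all windows. Of the G2 and mitosis windows 12 (70.6%) held a CHR and a CCAAT box, against 6.95% of all windows. The 4 windows of G1 cyclins and kinases held 0 E2F sites and 0 CHRs. Of the 6 inhibitor windows 1 held an E2F site and 1 a CHR. Over all 49 windows an E2F site was found in 12 (24.5%) and a CHR in 18 (36.7%). A GC box (GGGCGG), searched for as well, was in 42 of them (85.7%), against 35.7% of all promoter windows. A match is a run of letters in the reference sequence and not a measured site. Ccnd1, Ccnd2, Ccne2, Foxm1, Gmnn, Mcm4, Ccna2, Cdc25c, Aurkb, Kif20a and Rb1 were not among the windows used. The stretches from 120 bases before to 30 after the start are shown for Mcm6, which had the most E2F matches, for the mitosis genes Ccnb2, Cdc20 and Ube2c, which differed between oral and pancreatic KO tumors, and for E2f2 and Cdkn2b, which differed between the sites in both genotypes. E2f2 has a further stretch that is not shown (chr4:136180662-136180811), with a CHR and a CCAAT box. Matches outside the stretches are not shown either, among them an E2F match of the first E2f2 window (39 bases after the start) and a CHR of Cdkn2b (161 bases before it). Capitals mark E2F, CHR and CCAAT matches on either strand, so that a CCAAT box on the other strand reads ATTGG and a CHR reads TTCAAA. The first 2 E2F matches of Mcm6 lie on opposite strands and overlap, and their 12 letters read TTTGGCGCGAAA.
Mcm6 (chr1:128359676-128359825, minus strand): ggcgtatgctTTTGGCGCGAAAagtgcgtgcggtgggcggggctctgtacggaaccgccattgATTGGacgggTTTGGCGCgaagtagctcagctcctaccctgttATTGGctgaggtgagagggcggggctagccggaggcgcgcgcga
Ccnb2 (chr9:70421525-70421674, minus strand): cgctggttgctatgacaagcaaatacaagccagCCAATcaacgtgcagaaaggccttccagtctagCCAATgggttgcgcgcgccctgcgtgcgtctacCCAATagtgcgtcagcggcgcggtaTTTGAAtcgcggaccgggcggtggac
Cdc20 (chr4:118437314-118437463, minus strand): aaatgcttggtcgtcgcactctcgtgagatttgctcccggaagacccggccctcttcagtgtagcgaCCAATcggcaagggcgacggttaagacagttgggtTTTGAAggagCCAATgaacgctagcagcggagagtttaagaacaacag
Ube2c (chr2:164769809-164769958, plus strand): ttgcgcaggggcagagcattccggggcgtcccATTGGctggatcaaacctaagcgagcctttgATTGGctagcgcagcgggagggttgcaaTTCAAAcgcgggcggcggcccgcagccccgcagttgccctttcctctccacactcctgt
E2f2 (chr4:136172154-136172303, plus strand): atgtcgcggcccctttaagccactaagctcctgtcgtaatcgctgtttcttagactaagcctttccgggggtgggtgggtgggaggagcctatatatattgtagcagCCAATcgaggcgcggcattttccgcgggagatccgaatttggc
Cdkn2b (chr4:89311003-89311152, minus strand): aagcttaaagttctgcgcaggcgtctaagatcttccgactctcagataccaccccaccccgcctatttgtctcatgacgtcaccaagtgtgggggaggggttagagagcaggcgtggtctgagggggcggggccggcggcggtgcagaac

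**Figure D1:**
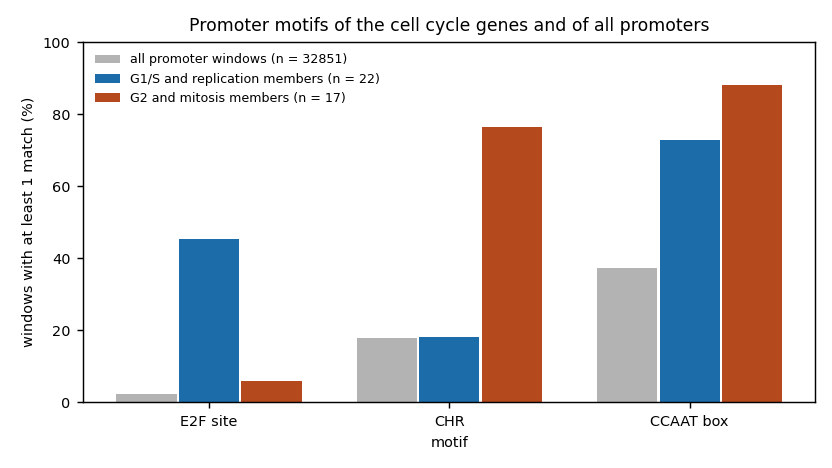
Share of promoter windows of 300 bases (vertical axis, %) with at least 1 match to each motif, for all 32851 windows, the 22 windows of G1/S and replication genes and the 17 windows of G2 and mitosis genes. E2F sites reach 45.5% in the G1/S and replication windows and CHRs 76.5% in the G2 and mitosis windows, against 2.26% and 17.9% of all windows.

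Levels of the 55 genes spanned a wide range. Per kilobase of exon, the mean over the 13 tumors was highest for Ccnd2 (74.3 CPM per kilobase), Cdk4 (52.6), Pcna (40.0) and Mki67 (34.3), and lowest for Cdc6 (2.34), Cdc25c (2.10) and E2f2 (2.05). Oral WT tumor 3 had the highest level of the 13 tumors for 44 of the 55 genes, and the highest of the 4 oral WT tumors for 48. Oral KO tumor 1 had the lowest of the 13 for 34 genes. Pancreatic KO tumor 2 had the lowest of the 13 for 13 genes and the lowest of its group for 48. Relative to the mean log2 level of the WT tumors of the same site, the median over the 55 genes was -0.01, -0.19, 0.55 and -0.34 for oral WT tumors 1 to 4 and -0.83 and -0.25 for oral KO tumors 1 and 2. It was 0.00, 0.05, -0.02 and -0.03 in the pancreatic WT tumors and 0.09, -0.36 and 0.05 in the pancreatic KO tumors. The oral WT tumors thus spread over a wider range than the pancreatic WT tumors, and oral KO tumor 2 lay within the range of the oral WT tumors. The median SD of log2 CPM over the genes was 0.43 in oral WT and 0.39 in oral KO tumors, against 0.16 in pancreatic WT and 0.26 in pancreatic KO tumors. Within the oral WT tumors the SD was smallest for Cdkn2b (0.12) and largest for Cdkn2a (1.04).

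**Figure D2:**
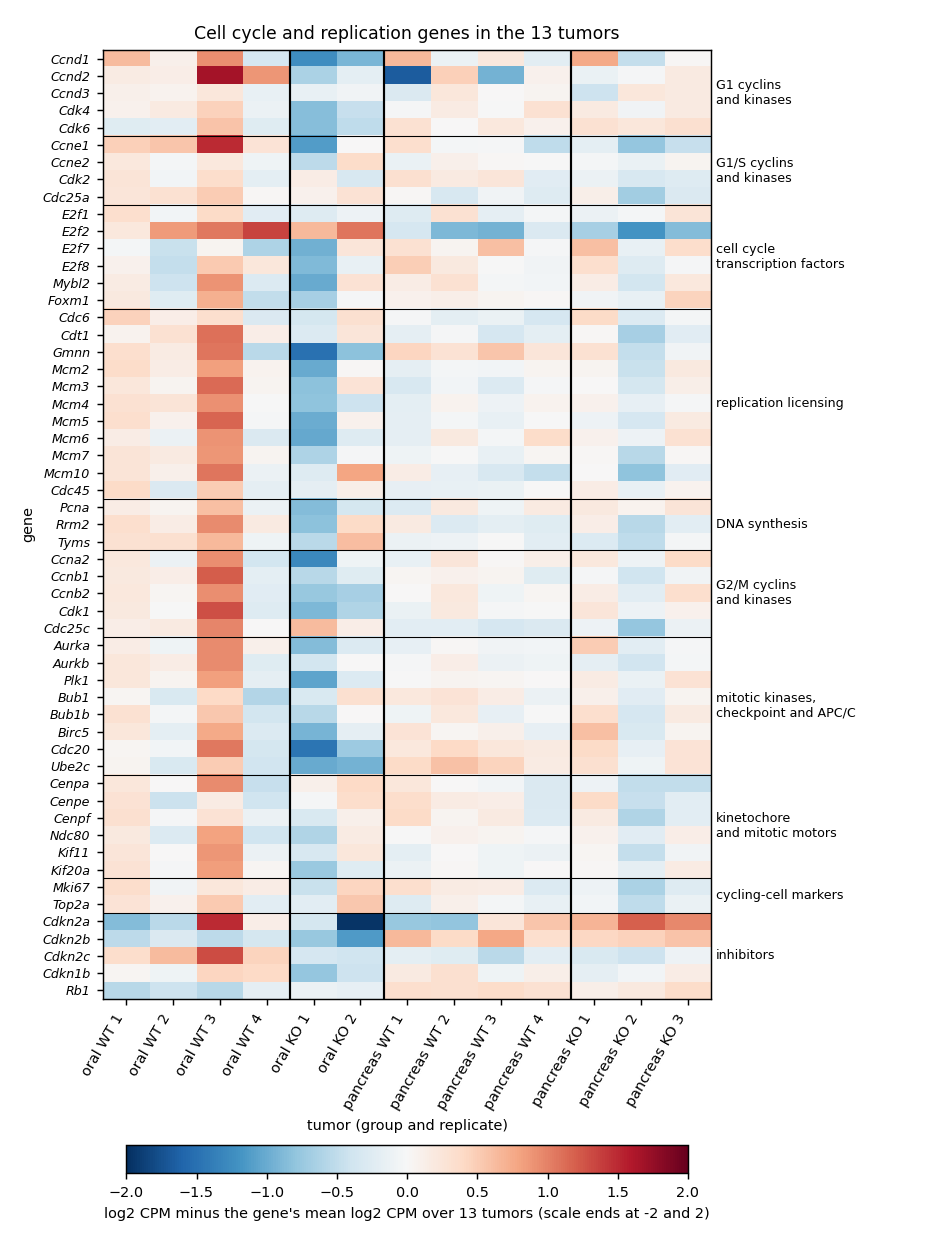
Level of each of the 55 genes (rows, grouped by role) in each of the 13 tumors (columns, by group and replicate), as log2 CPM minus the gene's mean over the 13 tumors. Oral WT tumor 3 is red for most genes and oral KO tumor 1 blue for most, while E2f2, Cdkn2b and Rb1 part the oral from the pancreatic tumors.

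Loss of Sox2 in oral tumors went with lower values for most of the genes, but 1 of 55 passed the test. Ccnd1, which encodes cyclin D1, was lower in KO than in WT tumors, and 0 of 55 were higher (edgeR quasi-likelihood test, Benjamini-Hochberg adjusted p under 0.05 over all 22342 genes tested). Over all genes, 4.58% were called lower and 9.2% higher, so that the share of members called, 1 of 55, was not above the background. In 1 fit of all 13 tumors, which takes the spread from all 4 groups, 17 of 55 (30.9%) were called lower against 14.1% of all genes, so that this reading depends on the fit. The median log2 fold change over the 55 genes was -0.47, against -0.21 over the protein-coding genes and 0.00 over all genes tested, and 46 of the 55 values were below 0 against 60.9% of protein-coding genes. For 21 of the 55 genes both KO tumors lay below all 4 WT tumors, which held for 25.5% of all genes. For 1 of the 55, Rb1, both lay above, which held for 22.4% of all genes. At an unadjusted p under 0.05 there were 12 of 55 members and 35.4% of all genes. The Wald test of DESeq2 called 7 members lower (12.7%) and 0 higher, against 11.1% and 12.8% of the genes to which it gave an adjusted p. The median over the members was -0.27 without oral KO tumor 1, -0.75 without oral KO tumor 2 and -0.24 without oral WT tumor 3. Over all genes tested it was -0.07, -0.05 and 0.01 in these fits. When protein-coding genes alone entered the fit, the median was -0.27 over the members and -0.02 over all genes of that fit.

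In pancreatic tumors the genes moved little. None of the 55 was called in either direction by edgeR or by DESeq2. Of all 24653 genes edgeR called 0.349% higher and 0.357% lower, and DESeq2 called 2.41% higher and 4.84% lower of the 23606 to which it gave an adjusted p. An unadjusted p under 0.05 was found for 2 of the 55 members and for 15.9% of all genes. The median log2 fold change was -0.03 against 0.02 over all genes tested, and 26 genes lay above and 29 below 0. Apart from Cdkn2a, whose value was 1.04 ± 0.36 (SE), the fold changes lay between -0.42 and 0.31 on the log2 scale. The 95% interval of Mki67, which encodes the Ki-67 protein of cycling cells, was -0.83 to 0.00, that of Ccnd1 -0.71 to 0.76 and that of Cdk4 -0.29 to 0.29.

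**Figure D3:**
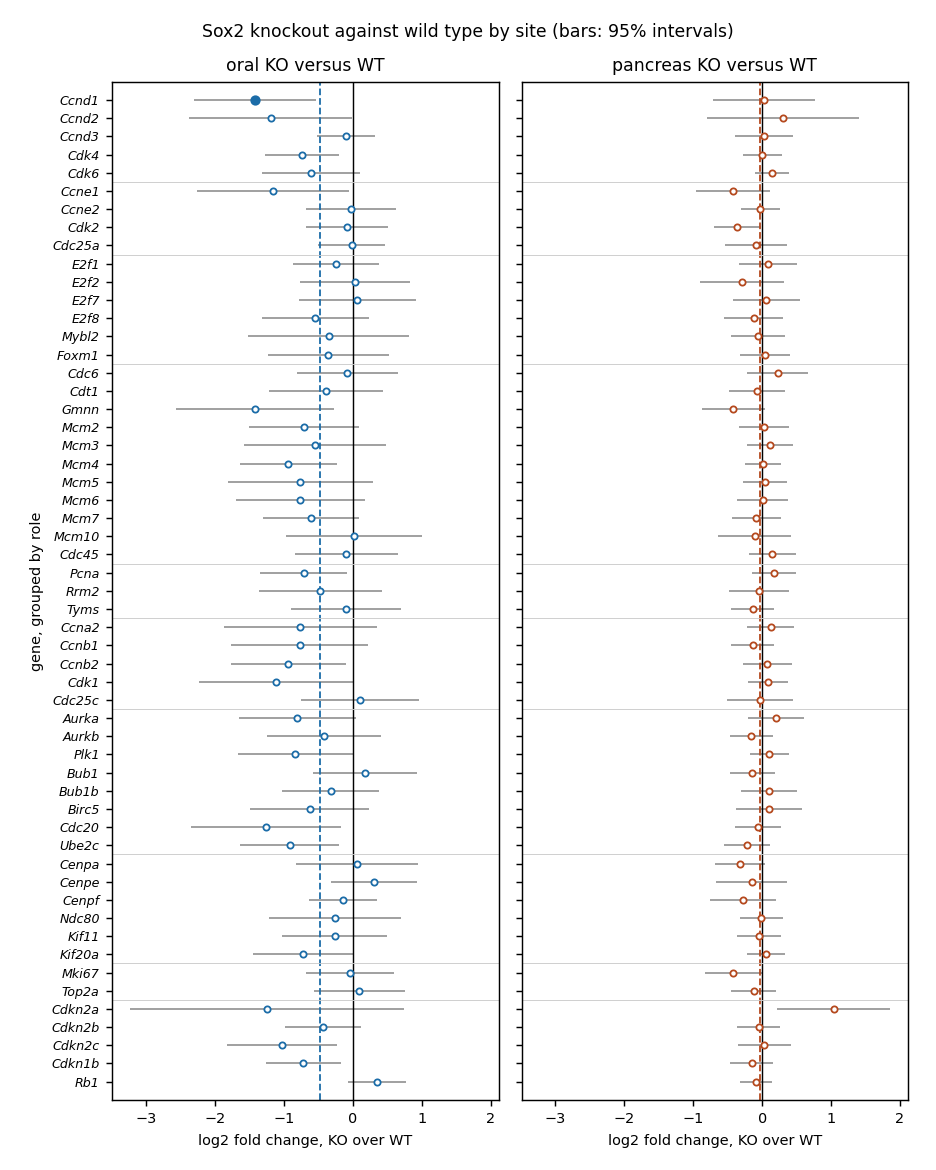
Log2 fold change of KO over WT for each of the 55 genes in oral (left) and pancreatic tumors (right), with 95% intervals from edgeR. Filled points passed an adjusted p under 0.05 and dashed lines mark the medians, -0.47 and -0.03. In oral tumors Ccnd1 alone is filled, and in pancreatic tumors no gene is.

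The oral fold changes were related to the length of the genes. Over the 55 members, the log2 fold change of oral KO over WT rose with exon length with a Spearman's rho of 0.56, against 0.31 over 16352 protein-coding genes. This is a description across genes measured in the same 6 libraries, and genes are not independent replicates. The median was -0.74 in the 27 members with under 4426 bases of exon and -0.12 in the 28 longer ones, and over protein-coding genes of the same lengths it was -0.44 and -0.02. Short members with low values include Gmnn (-1.41), Cdc20 (-1.25) and Ccnb2 (-0.94), and long ones near 0 include Mki67 (-0.04), Top2a (0.09) and Cenpf (-0.15). Against this order, 4 long members lay below the median of the short ones, Ccnd1 (-1.42), Ccnd2 (-1.19), Cdk1 (-1.11) and Mcm6 (-0.76), and 3 short members lay above the median of the long ones, Cdc45 (-0.10), Ccne2 (-0.02) and Bub1 (0.18). The rho was 0.56 without oral KO tumor 1 and 0.40 without oral KO tumor 2. In pancreatic tumors the rho over the members was -0.19. The part of gene length in the oral values was not tested.

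**Figure D4:**
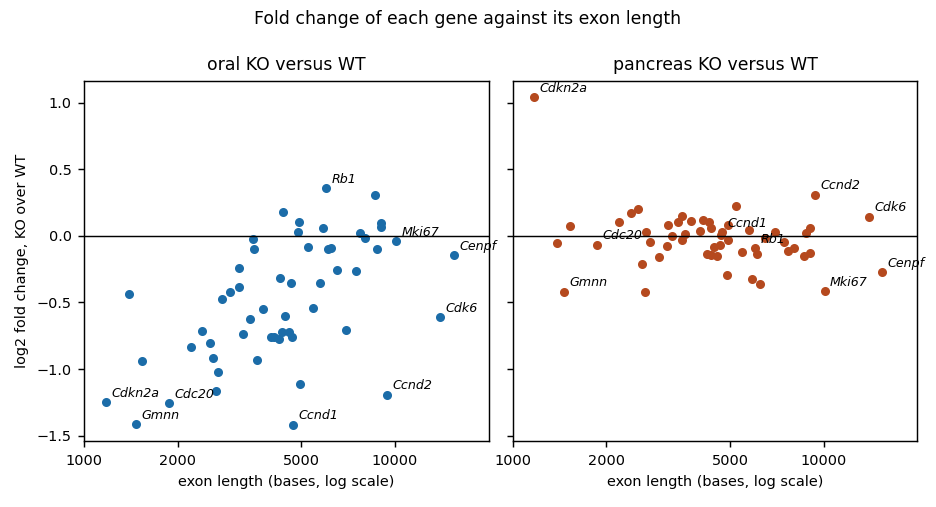
Log2 fold change of KO over WT (vertical axis) against exon length in bases (horizontal axis, log scale) for the 55 genes in oral (left) and pancreatic tumors (right), each point being 1 gene. In oral tumors the points under 4426 bases have a median of -0.74 and the others of -0.12, and in pancreatic tumors most points lie near 0.

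The sites differed in few of these genes in WT tumors. E2f2 and Cdkn2c were higher in oral than in pancreatic WT tumors and Cdkn2b and Rb1 were lower, 2 of 55 in each direction, where 11.3% of all 25836 genes were called higher and 11.0% lower. The median log2 fold change of oral over pancreatic tumors was 0.25 over the members, against 0.03 over protein-coding genes. Of the 55 values 45 were above and 10 below 0, where 47.9% of protein-coding genes lay below 0. Without oral WT tumor 3 the median was 0.02 and 4 members (7.27%) were called lower, against 9.05% of all genes. In KO tumors, 1 of 55 was called higher (E2f2) and 9 lower, where 19.9% of all genes were called higher and 18.0% lower. The 9 were Ccnd1, Cdk4, Cdk6, Pcna, Ccnb2, Cdc20, Ube2c, Cdkn2b and Cdkn1b. The median was -0.24 over the members and -0.21 over protein-coding genes. Without oral KO tumor 1 there were 2 called higher and 2 lower, where 12.5% of all genes were lower, and without pancreatic KO tumor 3 there were 4 lower against 14.8%. Without oral WT tumor 3 there were 3 higher and 18 lower, or 32.7% of the members against 19.7% of all genes, so that these counts rest on single libraries. Without pancreatic KO tumor 1 there were 2 higher (3.64%, against 15.7% of all genes). The tumors of the WT and of the KO comparison between sites are different tumors, although they share the estimate of spread.

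The difference between the oral and the pancreatic effect of Sox2 loss was tested as an interaction. The oral change (KO over WT) was lower than the pancreatic change for Cdk4, Mcm4, Pcna and Cdkn2c, 4 of 55, and higher for 0, where 7.62% of all genes were called lower and 7.71% higher. DESeq2 called 10 lower (18.2%) and 0 higher, where it called 13.3% of all genes lower and 11.7% higher, and 15 members and 34.0% of all genes had an unadjusted p under 0.05. The median interaction was -0.48 over the members and -0.28 over protein-coding genes. None was called without oral KO tumor 1, without oral WT tumor 2, without pancreatic WT tumor 1, 2 or 3, or without any single pancreatic KO tumor. There was 1 without oral WT tumor 1, and there were 9 (16.4%) without oral WT tumor 4, where 9.05% of all genes were lower. Each of the 4 calls was lost under 13 to 15 of 22 alternative fits.

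The D-type cyclins and their kinases held the only member called in the oral comparison. Ccnd1 (ENSMUSG00000070348, chr7:144929931-144939925, GRCm38) had 173, 121, 213 and 88.9 CPM in oral WT and 47.1 and 59.1 CPM in oral KO tumors, and both KO tumors lay below all WT tumors. The log2 fold change was -1.42 ± 0.38 (SE, 95% interval -2.31 to -0.53), with an adjusted p of 0.0493, just under the threshold, and the call was lost under 10 of 16 alternative fits (other normalizations, filters, designs and tools, and each tumor left out in turn), among them leaving out either KO tumor or any of oral WT tumors 1 to 3. Pancreatic WT tumors had 176, 103, 130.2 and 96.5 CPM and pancreatic KO tumors 189, 80.6 and 114 CPM, and the groups overlapped. Oral KO tumors lay -1.26 ± 0.42 from pancreatic KO tumors on the log2 scale (adjusted p = 0.0344), a call lost under 8 of 23 alternative fits, among them leaving out either oral KO tumor. Ccnd2, which encodes cyclin D2 and had the highest level per kilobase, ranged from 661 to 1909 CPM in oral WT tumors and had 387 and 527 CPM in oral KO tumors, with a log2 fold change of -1.19 ± 0.50 (adjusted p = 0.138). Among pancreatic WT tumors it ran from 189 to 843 CPM, the widest spread of any member there. Ccnd3 was at 40.9 to 63.7 CPM in all 13 tumors, with no difference called.

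Cdk4 and Cdk6 encode the kinases that D-type cyclins activate. Cdk4 had 177, 189, 229 and 153 CPM in oral WT and 92.04 and 122 CPM in oral KO tumors, and both KO tumors were the lowest. Its pancreatic levels were 164, 186, 165 and 206 CPM in WT and 189.9, 159 and 188 CPM in KO tumors, and these groups overlapped. The oral log2 fold change was -0.74 ± 0.23 (adjusted p = 0.0705) and the pancreatic 0.00 ± 0.12, and the interaction of -0.80 ± 0.24 passed the test (adjusted p = 0.0438). Between sites in KO tumors Cdk4 differed by -0.75 ± 0.19 (adjusted p = 0.0107), a call lost without oral KO tumor 1. Cdk6 had 189.9, 194, 332 and 189 CPM in oral WT and 124 and 158 CPM in oral KO tumors. The WT tumors of the pancreas had 276, 224, 261 and 238 CPM and the KO tumors 277, 263 and 279.99 CPM, all above both oral KO tumors. Its difference between sites in KO tumors was -0.95 ± 0.24 (adjusted p = 0.00944), and this call too was lost without oral KO tumor 1.

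Of the 4 genes of the G1/S switch 0 were called by edgeR in the 5 comparisons, with at most 2 at an unadjusted p under 0.05 in any of them. The 2 were between sites in WT tumors, where 34.9% of all genes had such a p, and DESeq2 called 1 of the 4 higher there, against 14.1% of all genes. Ccne1, which encodes cyclin E1, had 21.5, 22.8, 43.6 and 18.8 CPM in oral WT and 7.15 and 15.6 CPM in oral KO tumors. Both oral KO tumors lay below the WT tumors, with a log2 fold change of -1.16 ± 0.47 and an adjusted p of 0.126. Levels in the pancreas were 19.7, 15.03, 15.2 and 10.9 CPM (WT) and 13.5, 9.04 and 11.2 CPM (KO), and the groups overlapped. Ccne2 (cyclin E2), Cdk2 and the phosphatase gene Cdc25a had oral log2 fold changes between -0.09 and -0.02, and pancreatic ones of -0.03 ± 0.12, -0.36 ± 0.15 and -0.09 ± 0.19.

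Of the transcription factors, E2f2 alone was called, between sites. E2f2 (ENSMUSG00000018983, chr4:136172394-136196057), an activating E2F and the member with the lowest level per kilobase, had 9.67, 15.1, 17.3 and 21.3 CPM in oral WT and 13.1 and 17.6 CPM in oral KO tumors. In the pancreas it had 6.59, 4.50, 4.35 and 6.83 CPM in WT and 5.30, 3.63 and 4.59 CPM in KO tumors, and every oral tumor lay above every pancreatic tumor. The log2 fold change of oral over pancreatic tumors was 1.51 ± 0.27 in WT (adjusted p = 0.00214) and 1.77 ± 0.33 in KO tumors (adjusted p = 0.0022), and both calls held under all 23 alternative fits. Sox2 genotype made no called difference, with 0.03 ± 0.34 in oral and -0.29 ± 0.26 in pancreatic tumors. E2f1, the other activating E2F listed, had 21.2, 16.2, 21.98 and 14.4 CPM in oral WT and 13.999 and 15.6 CPM in oral KO tumors. Pancreatic WT tumors had 14.1, 20.7, 14.8 and 16.3 CPM and pancreatic KO tumors 15.5, 16.4 and 20.04 CPM. The WT and KO groups of E2f1 overlapped at both sites. Foxm1, the driver of mitotic genes, had 61.3, 45.4, 87.99 and 38.2 CPM in oral WT and 33.9 and 52.97 CPM in oral KO tumors. Its pancreatic levels were 56.8, 58.1, 55.3 and 54.5 CPM in WT and 50.998, 48.3 and 72.7 CPM in KO tumors, again with overlap. The repressive factors E2f7 and E2f8 and B-Myb (Mybl2) had oral fold changes of 0.07 ± 0.36, -0.54 ± 0.33 and -0.35 ± 0.49 on the log2 scale, none called, and 21.01% of the 31-base sequences of Mybl2 occur in other genes.

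The 11 replication licensing genes had a median oral log2 fold change of -0.60, with 10 values below 0, and a median of 0.01 in the pancreas. The oral median was -0.30 without oral KO tumor 1, -1.10 without oral KO tumor 2 and -0.37 without oral WT tumor 3. In oral tumors 0 of the 11 were called by edgeR, where 4.58% of all genes were called lower and 9.2% higher. An unadjusted p under 0.05 was found for 2 of the 11, against 35.4% of all genes. DESeq2 called 2 lower, against 11.1% of the genes to which it gave an adjusted p. Mcm2, a subunit of the MCM2-7 helicase, had 79.2, 68.4, 109 and 64.4 CPM in oral WT and 30.8 and 62.996 CPM in oral KO tumors. The WT tumors of the pancreas had 54.7, 59.7, 59.1 and 63.8 CPM and the KO tumors 63.8, 45.5 and 70.7 CPM. Both oral KO tumors lay below the oral WT tumors, with a log2 fold change of -0.71 ± 0.34 (adjusted p = 0.183), and the 2 differed from each other by more than 2-fold. Mcm4, another subunit, had 84.1, 81.001, 128 and 67.2 CPM in oral WT and 38.8 and 51.1 CPM in oral KO tumors. Levels in the pancreas were 59.2, 71.6, 63.7 and 71.4 CPM (WT) and 72.4, 60.4 and 66.8 CPM (KO). Its interaction was -1.003 ± 0.30 (adjusted p = 0.0423), from an oral change of -0.93 ± 0.30 (adjusted p = 0.0763) and a pancreatic one of 0.01 ± 0.12. Mcm3, Mcm5, Mcm6 and Mcm7, the other subunits listed, had oral log2 fold changes of -0.55, -0.76, -0.76 and -0.60, and pancreatic ones between -0.08 and 0.11, and 26.8% of the 31-base sequences of Mcm7 occur in other genes. The loading factor genes Cdc6 and Cdt1 had oral values of -0.08 and -0.38, and Mcm10 and Cdc45, which act when the helicase starts, 0.02 and -0.10. Gmnn, which encodes the Cdt1 inhibitor geminin, had the lowest oral value of the group at -1.41 ± 0.49 (adjusted p = 0.0891), with 8.48 to 25.9 CPM in WT and 4.37 and 6.99 CPM in KO tumors.

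Of the DNA synthesis genes, Pcna, the sliding clamp of DNA polymerases, had 104, 96.6, 142 and 86.3 CPM in oral WT and 51.4 and 73.03 CPM in oral KO tumors. In the pancreas it had 76.95, 107, 87.7 and 106 CPM in WT and 106, 97.9 and 112 CPM in KO tumors. Both oral KO tumors were the lowest of the 13. The oral change was -0.71 ± 0.27 (adjusted p = 0.107), the interaction -0.94 ± 0.29 (adjusted p = 0.046), and the difference between sites in KO tumors -0.76 ± 0.23 (adjusted p = 0.0225). The interaction call was lost under 15 of 22 alternative fits and the site call under 5 of 23, both without oral KO tumor 1 and without pancreatic KO tumor 3. Of its 31-base sequences 23.3% occur in other genes, mostly Pcna-ps2, so that its counts are less certain. Rrm2, a subunit of ribonucleotide reductase, and Tyms, thymidylate synthase, had oral changes of -0.47 ± 0.38 and -0.10 ± 0.34, with overlapping groups.

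Of the cyclins and kinase of G2 and mitosis, Ccnb2 was called, between sites in KO tumors. Cdk1, the mitotic kinase, had 50.98, 44.3, 108 and 37.1 CPM in oral WT and 23.7 and 29.4 CPM in oral KO tumors. Pancreatic WT tumors had 40.4, 50.8, 43.6 and 44.2 CPM and pancreatic KO tumors 52.7, 41.3 and 47.1 CPM. Both oral KO tumors lay below the WT tumors (log2 fold change -1.11 ± 0.47, adjusted p = 0.144), and oral WT tumor 3 was more than 2-fold above the other oral WT tumors. Ccna2, cyclin A2, had 116, 92.7, 191 and 78.2 CPM in oral WT and 41.01 and 94.3 CPM in oral KO tumors. Its pancreatic levels were 90.99, 119, 102 and 109 CPM in WT and 116, 93.8 and 131 CPM in KO tumors. In oral tumors the groups overlapped, as KO tumor 2 lay within the WT range (-0.76 ± 0.47, adjusted p = 0.284). Ccnb1, cyclin B1, had 56.5, 53.9, 114 and 43.1 CPM in oral WT and 33.4 and 41.4 CPM in oral KO tumors. The WT tumors of the pancreas had 50.5, 52.3, 51.3 and 41.8 CPM and the KO tumors 48.5, 37.2 and 46.9 CPM. Its oral change was -0.77 ± 0.42 (adjusted p = 0.229), and 27.7% of its 31-base sequences occur in other genes, mostly the pseudogene Ccnb1-ps. Ccnb2, cyclin B2, had 37.9, 33.3, 62.2 and 27.7 CPM in oral WT and 19.4 and 20.6 CPM in oral KO tumors. Levels in the pancreas were 32.9, 37.7, 30.8 and 33.7 CPM (WT) and 36.1, 28.2 and 41.4 CPM (KO). Oral KO tumors lay below pancreatic KO tumors by -0.82 ± 0.29 (adjusted p = 0.0434), a call lost under 13 of 23 alternative fits, among them leaving out either oral KO tumor. The phosphatase gene Cdc25c was at 5.76 to 19.4 CPM in the 13 tumors, and all oral tumors lay above all pancreatic ones of the same genotype, without a call (0.63 ± 0.24, adjusted p = 0.0827 in WT).

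Among the mitotic kinases, checkpoint genes and genes of the anaphase-promoting complex (APC/C), Cdc20 and Ube2c were called between sites in KO tumors. Cdc20, an activator of the APC/C, had 45.1, 42.3, 91.1 and 34.4 CPM in oral WT and 16.1 and 26.5 CPM in oral KO tumors. In the pancreas it had 50.8, 58.2, 51.8 and 50.1 CPM in WT and 57.3, 39.4 and 53.3 CPM in KO tumors. Both oral KO tumors were the lowest of the 13. The difference between sites in KO tumors was -1.23 ± 0.37 (adjusted p = 0.0218), lost under 4 of 23 alternative fits, among them leaving out oral KO tumor 1, and the oral change was -1.25 ± 0.46 (adjusted p = 0.104). Its counts too are less certain, as 25.5% of its 31-base sequences occur in other genes, mostly Gm7856. Ube2c, the ubiquitin-conjugating enzyme of the APC/C, had 41.4, 32.05, 56.1 and 30.4 CPM in oral WT and 19.7 and 20.6 CPM in oral KO tumors. Pancreatic WT tumors had 51.9, 59.3, 54.1 and 44.5 CPM and pancreatic KO tumors 49.4, 37.2 and 47.9 CPM. The 2 oral KO tumors were again the lowest, with a difference between sites in KO tumors of -1.15 ± 0.25 (adjusted p = 0.00478) that held under all 23 alternative fits, while the interaction was -0.76 ± 0.31 (adjusted p = 0.107). Plk1, polo-like kinase 1, had 43.5, 38.3, 65.7 and 32.7 CPM in oral WT and 17.8 and 30.5 CPM in oral KO tumors. Its pancreatic levels were 36.7, 38.4, 37.9 and 37.4 CPM in WT and 41.5, 33.6 and 45.1 CPM in KO tumors. The oral KO tumors lay below the WT tumors (-0.83 ± 0.36, adjusted p = 0.142), and 14.8% of its 31-base sequences occur in Plk-ps1. The Aurora kinase genes Aurka and Aurkb and the survivin gene Birc5 had oral values of -0.80, -0.42 and -0.63, and the spindle checkpoint genes Bub1 and Bub1b 0.18 and -0.32, none called. The 6 kinetochore and motor genes had a median oral value of -0.20, from Kif20a at -0.72 to Cenpe at 0.31, and -0.10 in the pancreas. The oral median turned to 0.04 without oral KO tumor 1 and to 0.03 without oral WT tumor 3, and was -0.42 without oral KO tumor 2.

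The 2 general markers of cycling cells had a median oral log2 fold change of 0.03, which was 0.36 without oral KO tumor 1 and -0.39 without oral KO tumor 2. Mki67 had 431, 321, 393 and 371 CPM in oral WT and 247 and 456 CPM in oral KO tumors. The WT tumors of the pancreas had 424, 376, 375 and 278 CPM and the KO tumors 314, 216 and 280.2 CPM. Oral KO tumor 2 had the highest and oral KO tumor 1 the lowest level of the 6 oral tumors. The oral change was -0.04 ± 0.27 (95% interval -0.67 to 0.59), and the pancreatic one -0.42 ± 0.18 with an adjusted p of 0.316. Top2a, topoisomerase 2-alpha, was at 172 to 286 CPM in oral WT tumors and 172 and 289.5 CPM in oral KO tumors (log2 fold change 0.09 ± 0.28, 95% interval -0.57 to 0.76). These intervals include changes of about the size of the members' median, so that the markers are not shown to differ from the other members.

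The 5 inhibitors, with Rb1 among them, held 3 of the 4 calls between sites in WT tumors and 2 of the 10 in KO tumors. Over all genes 11.3% were called higher and 11.0% lower in WT tumors, and 19.9% and 18.0% in KO tumors. Cdkn2b (p15, ENSMUSG00000073802, chr4:89306299-89311039) had 15.9, 18.6, 15.8 and 17.8 CPM in oral WT and 13.4 and 10.4 CPM in oral KO tumors. Levels in the pancreas were 35.5, 29.6, 38.6 and 28.7 CPM (WT) and 30.2, 31.1 and 33.7 CPM (KO). Every oral tumor lay below every pancreatic tumor. The log2 fold change of oral over pancreatic tumors was -0.96 ± 0.14 in WT (adjusted p = 0.000762) and -1.42 ± 0.19 in KO tumors (adjusted p = 0.000444), and both calls held under all 23 alternative fits. Rb1 (ENSMUSG00000022105, chr14:73183673-73325822) had 42.2, 46.8, 42.4 and 54.8 CPM in oral WT and 57.3 and 55.6 CPM in oral KO tumors. In the pancreas it had 78.3, 77.4, 79.8 and 77.02 CPM in WT and 67.2, 71.04 and 79.8 CPM in KO tumors. It was likewise lower in every oral tumor, by -0.75 ± 0.11 in WT (adjusted p = 0.000749, held under all 23 alternative fits) and -0.36 ± 0.14 in KO tumors (adjusted p = 0.0585, not called). Both oral KO tumors lay above all oral WT tumors for Rb1 (0.36 ± 0.18, adjusted p = 0.198), as they did for 22.4% of all genes tested.

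Cdkn2c (p18, ENSMUSG00000028551, chr4:109660876-109667189) went the other way in WT tumors. It had 18.2, 22.01, 35.03 and 19.3 CPM in oral WT and 11.3 and 10.8 CPM in oral KO tumors, so that the oral KO tumors lay below the oral WT tumors. Pancreatic WT tumors had 12.5, 12.1, 9.80 and 12.3 CPM and pancreatic KO tumors 11.5, 10.6 and 13.2 CPM, near the level of the oral KO tumors. Oral over pancreatic WT tumors gave 1.02 ± 0.21 (adjusted p = 0.00464, held under all 23 alternative fits), against -0.10 ± 0.27 in KO tumors. The interaction was -1.11 ± 0.34 (adjusted p = 0.0462) and was lost under 13 of 22 alternative fits. Cdkn1b had 116, 106, 152 and 148 CPM in oral WT and 65.8 and 85.1 CPM in oral KO tumors. Its pancreatic levels were 127, 141, 106 and 122 CPM in WT and 99.1, 108 and 125 CPM in KO tumors. The oral KO tumors were the lowest, with an oral change of -0.72 ± 0.23 (adjusted p = 0.0759) and a difference between sites in KO tumors of -0.55 ± 0.20 (adjusted p = 0.0431), the latter lost under 9 of 23 alternative fits, among them leaving out oral KO tumor 1 and fitting the KO tumors alone. Cdkn2a, whose locus encodes p16 and p19, had 3.33, 4.19, 17.01 and 6.64 CPM in oral WT and 4.77 and 1.56 CPM in oral KO tumors. The WT tumors of the pancreas had 3.57, 3.51, 7.13 and 8.90 CPM and the KO tumors 9.69, 13.8 and 11.8 CPM. It was the only member whose pancreatic groups did not overlap, all 3 KO tumors lying above all 4 WT tumors, with a log2 fold change of 1.04 ± 0.36 and an adjusted p of 0.212. This separation upwards held for 6.80% of all genes tested in the pancreas, and 1 of the 55 members had it. The oral log2 fold change of Cdkn2a was -1.25, its difference between sites in KO tumors -1.93 and its interaction -2.36, none called by edgeR. The Wald test of DESeq2 called the last 2 lower (adjusted p = 0.0168 and 0.0304), where it called 20.9% and 13.3% of all genes lower.

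**Figure D5:**
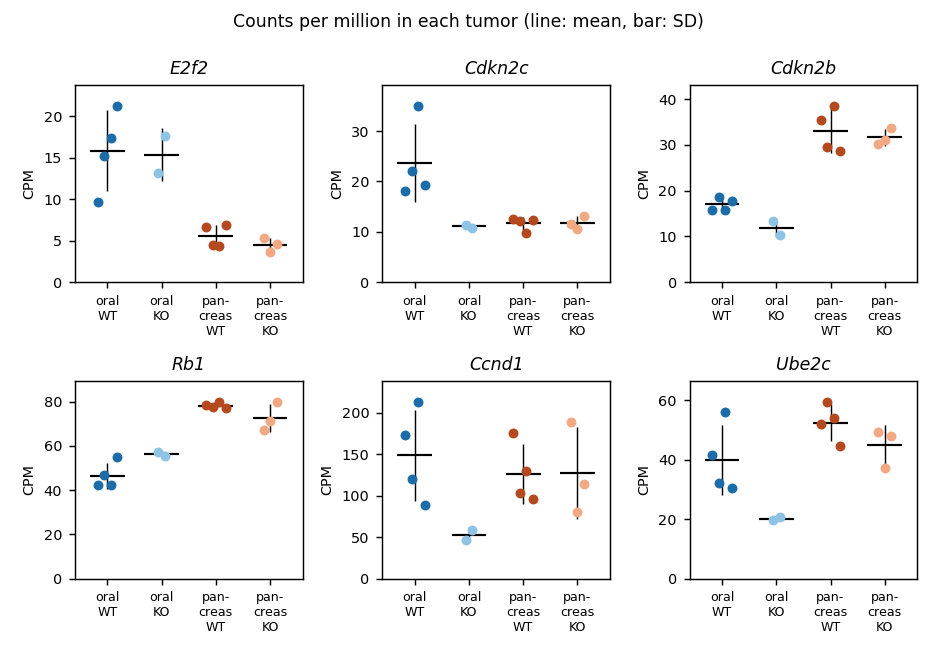
CPM (vertical axis, from 0) of 6 genes called in at least 1 comparison, in each of the 13 tumors by group, with the mean (line) and SD (bar). E2f2 is higher and Cdkn2b and Rb1 are lower in every oral than in every pancreatic tumor, while Ccnd1 and Ube2c are lowest in the 2 oral KO tumors and Cdkn2c is highest in the oral WT tumors.

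Other genes of the same processes were counted from 3 lists that leave out the 55. Of 44 other S phase genes, 0 were called higher and 1 lower in oral KO tumors, Gins4, a subunit of the GINS helicase complex, with a log2 fold change of -0.95 ± 0.23 (SE, adjusted p = 0.039). Of 50 other G2 and mitosis genes 0 were called by edgeR, 10 had an unadjusted p under 0.05 and DESeq2 called 4 lower. Of 24 other regulators 1 was lower, Cdkn1c (p57), with -2.64 ± 0.37 (adjusted p = 0.0183). Over all genes in the oral comparison edgeR called 9.2% higher and 4.58% lower, and 35.4% had an unadjusted p under 0.05. DESeq2 called 11.1% lower of the genes to which it gave an adjusted p. Cdkn1c had 76.7, 62.9, 53.7 and 39.7 CPM in oral WT and 11.02 and 6.71 CPM in oral KO tumors, the latter near the 3.45 to 10.4 CPM of the pancreatic tumors. The median oral log2 fold changes of the 3 lists were -0.33, -0.50 and -0.28. In the pancreas edgeR called 0 genes of the 3 lists, where it called 0.349% of all genes higher and 0.357% lower. There were 0, 3 and 4 at an unadjusted p under 0.05, against 15.9% of all genes. DESeq2 called 0, 1 and 1 lower, against 4.84% of the genes to which it gave an adjusted p. The medians of the lists were -0.03, -0.04 and 0.03. Between sites in WT tumors 11.3% of all genes were called higher and 11.0% lower in oral tumors. Of the lists 5 of the 44, 3 of the 50 and 5 of the 24 were higher there and 0, 0 and 3 lower. Among the higher ones were Timeless, which protects replication forks (1.11 ± 0.23, adjusted p = 0.00503), Psrc1 (1.30 ± 0.27, adjusted p = 0.00513) and Cdkn1c (3.01 ± 0.36, adjusted p = 0.000279), and among the lower ones Ccng2 (-1.01 ± 0.22, adjusted p = 0.00602) and the phosphatase gene Cdc25b (-0.64 ± 0.15, adjusted p = 0.00922). In KO tumors 3, 1 and 0 were higher and 3, 8 and 6 lower, where 19.9% of all genes were called higher and 18.0% lower. The interaction was called lower for 2, 1 and 2 genes and higher for 0, where 7.62% of all genes were called lower and 7.71% higher. Cdkn1c had -2.57 ± 0.57 (adjusted p = 0.0161) and Gins4 -1.07 ± 0.24 (adjusted p = 0.0168).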

How the data were processed

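Total RNA of 13 mouse tumors was depleted of ribosomal RNA and sequenced with a stranded kit, 1 library per tumor. The authors trimmed reads with Trim Galore 0.6.10, quantified them with kallisto 0.50.0 on GENCODE M23 transcripts (GRCm38) and used tximport for sums per gene. The values deposited are estimated counts, not normalized, of which 27.3% are not whole numbers. Groups came from the sample titles. Symbols, lengths and positions came from GENCODE M21 on GRCm38, which holds 55141 of the 55332 identifiers with values, and promoters from RefSeq.

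The counts were rounded, and a gene was tested where 2 or more tumors had 10 or more counts. KO was compared with WT within each site, and sites and the interaction in 1 fit of all 13 tumors, with edgeR 4.0.16 (TMM, robust quasi-likelihood test, Benjamini-Hochberg adjustment over all genes tested, called at an adjusted p under 0.05). The scripts were tested on simulated data. Alternatives were DESeq2 1.42.0, other normalizations, filters and designs, and leaving out each tumor. CPM use TMM factors of the 13 tumors, and exon length is that of all exons of a gene joined. Totals of 11735315 to 120482829 give the depth, and precision from it covers counting error only.

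The 55 genes, the other gene lists and the rule for named genes were chosen with earlier results of these data known. Values in every tumor are given for 16 genes fixed by name and for every other member called in a comparison, and of the other cell cycle lists at most 3 genes per direction were named. A further scaling, library totals without TMM, was added after seeing the data. Same-numbered tumors of a site did not deviate together, apart from KO tumor 1 and WT tumor 1 of the pancreas (correlation 0.32). With 2 oral and 3 pancreatic pairs, pairing could not be settled.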

Additional observations from a re-analysis of the deposited data

Results flagged for a closer look

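In groups of 4 tumors, a gene was singled out where the highest or lowest tumor lay farther from the others than Dixon's 95% critical value allows. Of 110 groups tested 8 did so, and chance alone gives about 1 in 20. Oral WT tumor 3 was the high one in 6 of the 8, for Cdk6 (331.5 CPM against at most 194 CPM in the other oral WT tumors), Ccne1 (43.6 against 22.8), Cdt1 (58.9 against 33.9), Mcm3 (109.5 against 58.2), Cdc25c (19.4 against 11.1) and Aurka (41.9 against 24.0). Rrm2 was high in pancreatic WT tumor 1 (49.7 CPM against at most 38.0), and Cdkn2c was low in pancreatic WT tumor 3 (9.80 CPM against at least 12.1).

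The effect of Sox2 loss differed between sites, by the test of the interaction, for 4 of the 55 genes (7.27%), near the 7.62% of all genes called lower, and each of the 4 calls was lost under 13 to 15 of 22 alternative fits. The oral minus the pancreatic log2 fold change was -0.80 for Cdk4, -1.003 for Mcm4, -0.94 for Pcna and -1.11 for Cdkn2c.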

How the results depend on the processing

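Among the 16 genes fixed by name and the other members called in a comparison, no value turned its direction while called. The remaining members were not checked for this. Calls of E2f2 and Cdkn2b between sites in both genotypes, of Cdkn2c and Rb1 in WT and of Ube2c in KO tumors held under all 23 alternative fits. The members called lower in oral KO tumors, 1 in the report, numbered 7 with DESeq2 (12.7%, against 11.1% of all genes) and 17 in 1 fit of all 13 tumors (30.9% against 14.1%). They numbered 2 without a count filter (3.64% against 3.91%), and 0 with library totals, without robust dispersions, with a replicate block, with protein-coding genes alone and with thinned counts. Leaving out single tumors gave 0 to 2. The pancreatic median was 0.11 with library totals instead of -0.03. Between sites in WT tumors, library totals gave 8 higher (14.5%, against 16.9% of all genes) and DESeq2 4 (7.27% against 14.1%) instead of 2. A fold change above 1 on the log2 scale as a further condition left 0 lower instead of 2, and leaving out single tumors gave 2 to 4 lower. Between sites in KO tumors, 9 lower became 4 with the fold condition, 4 with library totals (7.27%, against 12.4% of all genes) and 5 with protein-coding genes alone (9.09% against 16.3%). With at least 10 counts in every tumor, protein-coding genes alone or thinned counts, 1 higher became 2 (3.64%, against 16.5% to 22.5% of all genes). Leaving out single tumors gave 2 to 18 lower, 1 to 3 higher and medians of -0.65 to -0.12. For the interaction, 4 lower became 10 with DESeq2 (18.2% against 13.3%), 2 with the fold condition and 1 with library totals (1.82% against 6.62%). With the replicate block, protein-coding genes alone, thinned counts or at least 10 counts in every tumor, 0 were lower. The last of these also gave 1 higher (1.82%, against 11.4% of all genes). Leaving out single tumors gave 0 to 9 lower and medians of -0.82 to -0.32. The cause of these shifts was not tested, beyond the fewer samples or genes that an alternative keeps by construction. Where a group was left with 1 tumor, it was assumed to vary like the others. Correlations of same-numbered tumors' deviations were -0.08 to -0.04 in the oral (2 pairs) and -0.07 to 0.32 in the pancreatic comparison (3 pairs). They were -0.07 to 0.03 in the WT site comparison (4 pairs). The 0.32 was between KO tumor 1 and WT tumor 1 of the pancreas. So few pairs cannot show whether the numbers pair the tumors. With the replicate block edgeR called 231 of all genes higher and 499 lower in the pancreas, against 86 and 88 without it. Of the members it called 0 there. The median over the members under this block was -0.31 in oral and -0.06 in pancreatic tumors.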
